A study of Mus musculus with 6 samples.

Results

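The BCL2 family sets whether the outer mitochondrial membrane stays intact or is opened to release death-promoting proteins. The transcripts described here are its 10 named death and survival genes, chosen by symbol: the survival genes Bcl2l10, Bcl2l1, Bcl2 and Mcl1, the pore-forming genes Bax, Bak1 and Bok, the BH3-only genes Bad and Bid, and the mitophagy receptor gene Bnip3l. All 10 were among the 54658 genes of the single-oocyte table, and 8 of the 10 were among the 14165 genes of the table of pools. Bak1 and Bok were not analysed here in the pools.

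Survival proteins of this family hold the pore formers and the BH3-only proteins in check by binding them. BH3-only proteins carry death signals to the survival proteins and to the pore formers, and Bax and Bak proteins then open the membrane so that cytochrome c can leave the mitochondrion. Oocytes are rich in mitochondria and are known for a survival member, Bcl2l10, that most other tissues hold at low levels.

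All RNA came from mouse oocytes labelled MII, arrested in the second meiotic division as eggs are until a sperm enters. The study title names Plat, the gene of tissue plasminogen activator, and ageing of the egg. A sample of 59 aged oocytes and a sample of 35 young oocytes, neither treated, were sequenced oocyte by oocyte with Smart-seq2, which copies polyadenylated RNA along its full length. The other 4 samples were pools of 10 young oocytes, of which 2 received control siRNA (siCtrl) and 2 received siRNA against Plat (siPlat). Mouse strain, exact ages and the number of animals are not given in the sources used here, and the labels do not say that pools came from separate animals. The p-values therefore measure only the spread between these pools, which may be technical. In the pools, fewer cells of a type and less RNA per cell cannot be told apart.

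Plat itself was at 441 and 439 CPM (gene counts scaled to a library of equal size) in the siCtrl pools and at 51.4 and 39.0 CPM in the siPlat pools, and fell 9.74-fold (edgeR quasi-likelihood test, adjusted p 6.21e-06). Gene counts summed to between 12142884 and 17475952 per pool and to between 2018226 and 11894782 per oocyte. Genes of the mitochondrial genome took 0.688% to 1.92% of gene counts in young oocytes, and this percentage is called the mitochondrial share. Among aged oocytes, 38 had a share of 0.947% to 2.97% and 21 had a share of 6.78% to 61.6%, with none in between, so the aged sample is also described split at 5%. These 21 oocytes differed from the rest in depth and in identity genes. Their median total was 4315505 counts, against 7075728.5 in the other aged oocytes, and they held 7385 to 13849 genes with a count, against 14724 to 17623. The summed level of 11 oocyte marker genes had a median of 30663 CPM in young oocytes, 28595 CPM in the 38 and 1350 CPM in the 21, where it reached at most 3389 CPM. All 11 markers had counts in the 21. The linker histone gene H1foo was at 127 CPM there against 9332 CPM in the 38, while Zp2 was at 124 against 351 CPM. Their label is MII like that of the rest, but whether they were intact oocytes was not tested, and every value of the 21 below is read with that limit. The part of these differences in the member levels was not tested either. With 1 sample per age, neither the ages nor the aged classes were tested against each other, and intervals cover counting error only.

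**Figure D1:**
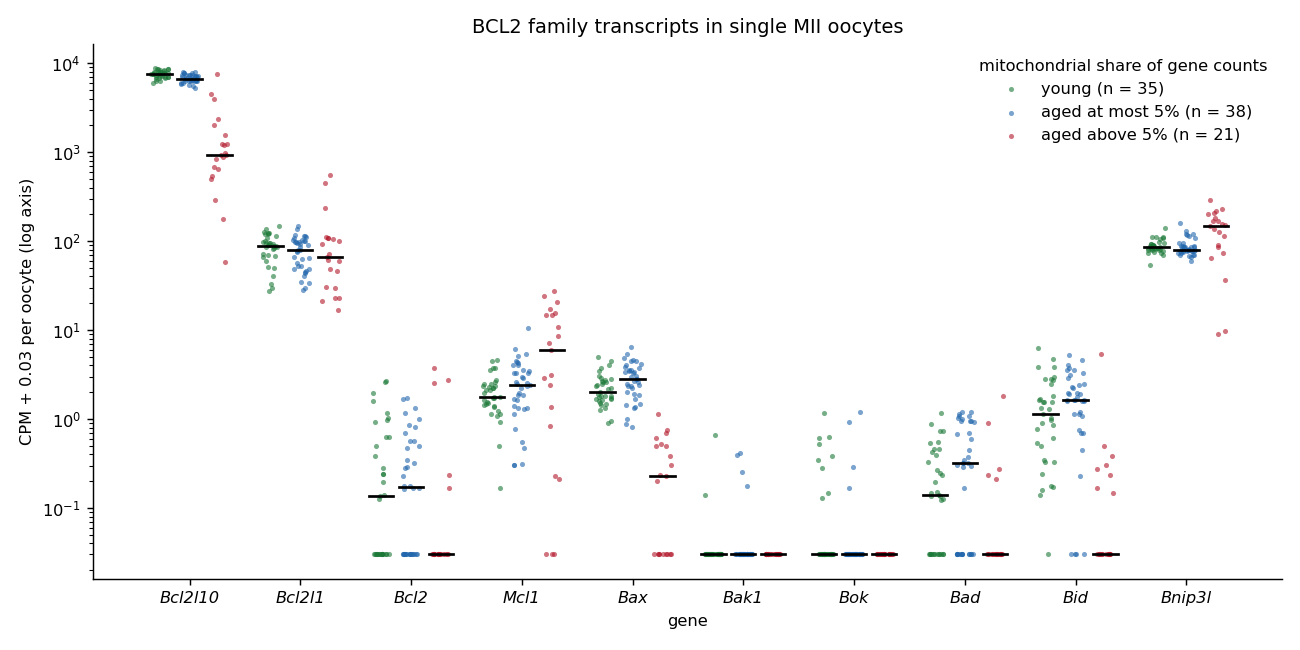
Level of each of the 10 genes in every single oocyte, as CPM plus 0.03 on a log axis; each point is 1 oocyte, and the black bars are medians of the 35 young, 38 aged oocytes of at most 5% mitochondrial share and 21 aged oocytes above 5%. Bcl2l10 lies far above the others, with a median of 7637 CPM in young oocytes and 936 CPM in the aged oocytes above 5%.

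Per exon length, Bcl2l10 was the highest of the 10 transcripts in every single oocyte. Bnip3l and Bcl2l1 came next in the summed level of every class. Levels of different genes are compared here as TPM, which divides counts by exon length before scaling to library size. In the summed young oocytes Bcl2l10 was at 19836 TPM, Bnip3l at 74.6 TPM and Bcl2l1 at 63.1 TPM. Bax followed at 4.59 TPM, Mcl1 at 1.89 TPM and Bid at 1.31 TPM. Bad at 0.292 TPM, Bok at 0.226 TPM, Bcl2 at 0.141 TPM and Bak1 at 0.0221 TPM closed the order. Some neighbours in this order were not separated from oocyte to oocyte. Bnip3l was above Bcl2l1 in 25 of 35 young oocytes and below it in 10, and Mcl1 was above Bid in 25 and below it in 10. Bcl2l10 was above Bnip3l, and Bcl2l1 above Bax, in 35 of 35, and Bax was above Mcl1 in 34 of 35. Among the lowest genes, Bok was above Bcl2 in 9 young oocytes, below it in 12 and level with it in 14.

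The 38 aged oocytes of at most 5% kept Bcl2l10, Bnip3l, Bcl2l1, Bax, Mcl1 and Bid in this same order, at 17295, 71.6, 53.5, 5.63, 2.47 and 1.70 TPM. In the 21 above 5%, Mcl1 at 5.37 TPM stood above Bax at 0.418 TPM, the reverse of the young order, and it did so in 17 of the 21 oocytes. Bcl2l10 made up 98.9% to 99.6% of the summed TPM of the 10 genes in young oocytes, with a median of 99.3%. Its share was 98.8% to 99.5% in the 38 and 65.5% to 98.3%, with a median of 93.2%, in the 21. It was at least 90% in 35 of 35 young oocytes, in 38 of 38 and in 17 of 21.

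Bcl2l10 encodes a survival protein expressed chiefly in the ovary and in oocytes. Its gene lies at chr9:75347758-75351632 on the plus strand of mm10, with 1220 exonic bases and no exon shared with another gene. In young oocytes its level was lowest at 5991, median 7637 and highest at 8754 CPM, and in the 38 it was lowest at 5265, median 6643 and highest at 7894 CPM. The 2 ranges overlapped over most of their width, with 4 of the 38 below the lowest young oocyte. In the 21, the level was lowest at 57.9, median 936 and highest at 7590 CPM, and 20 of these 21 lay below every young oocyte. Summed over oocytes, Bcl2l10 was at 7487 CPM in young oocytes (exact Poisson interval 7478 to 7497) and at 5407 CPM in all aged oocytes (5399 to 5415), a log2 ratio of -0.47. Without the 21 oocytes above 5% the log2 ratio was -0.16, with 6721 CPM in the 38 and 1851 CPM in the 21.

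Within the 21, Bcl2l10 was highest at the smallest mitochondrial shares. Its 3 highest levels were 7590 CPM at a share of 6.78%, 4526 CPM at 11.5% and 3979 CPM at 6.80%. The lowest were 57.9 CPM at 52.7% and 179 CPM at 61.6%. Spearman's rho between level and share was -0.82 over the 21 oocytes, and -0.72 when Bcl2l10 was expressed over the nuclear gene total, which leaves mitochondrially encoded counts out of the denominator. Both are descriptions of 21 libraries of 1 sample, which share depth and library quality with the share itself.

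Bcl2l1 encodes BCL-XL, a broadly expressed survival protein, and lies at chr2:152780668-152831728 on the minus strand. It was at 27.5 to 149 CPM in young oocytes with a median of 89.1, and at 27.9 to 146 CPM in the 38 with a median of 79.3. These ranges were almost the same. In the 21 it ran from 16.6 to 556 CPM with a median of 65.8, and so passed the young range at both ends, with 3 oocytes above it and 4 below it. Its summed level was 148 CPM in the 21 against 78.1 CPM in the 38, a ratio of 1.89, while the ratio of medians was 0.829. One oocyte held 33.8% of the Bcl2l1 counts of the 21, and without it the summed ratio was 1.38. The 2 highest levels, 556 and 448 CPM, belonged to the oocytes with shares of 6.80% and 6.78%, which were also among the 3 highest in Bcl2l10. For all aged over young, the log2 ratio of Bcl2l1 was 0.11, and it was -0.19 without the 21.

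**Figure D2:**
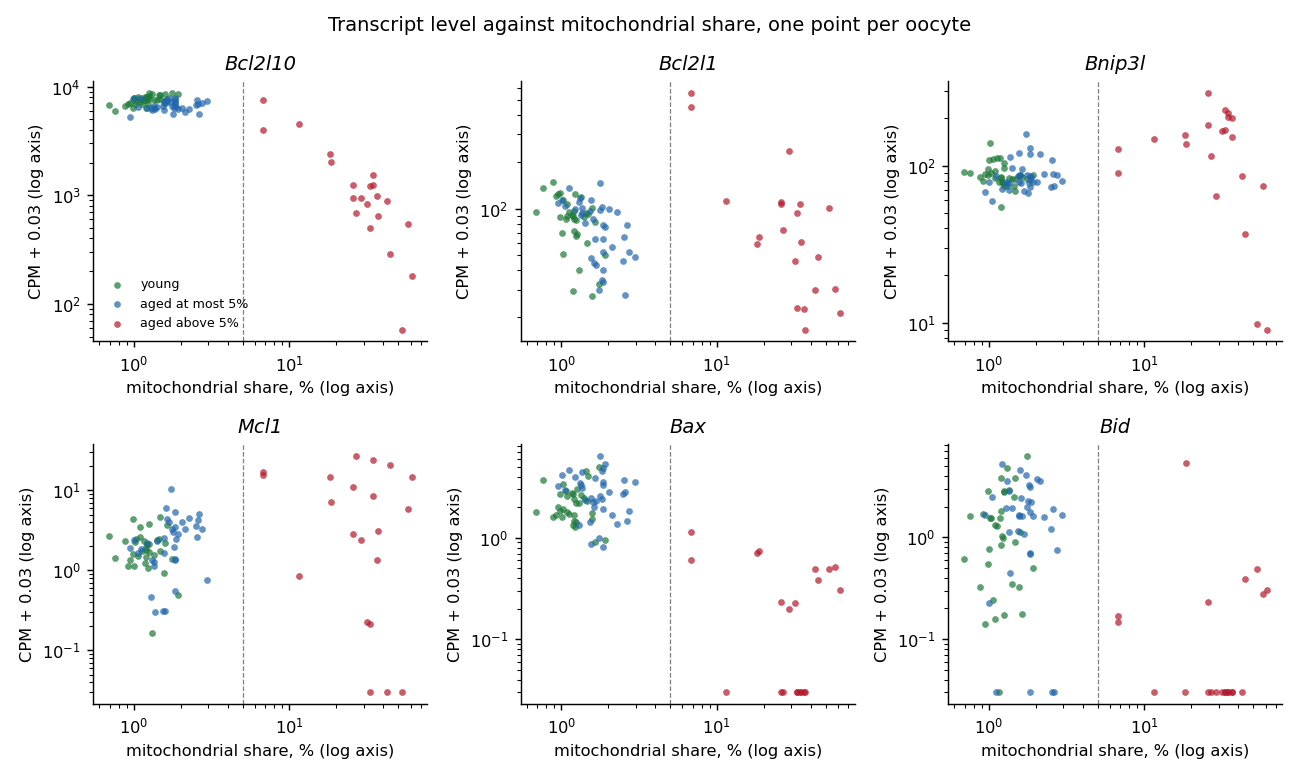
Level of 6 of the genes (CPM plus 0.03, log axis) against the mitochondrially encoded share of gene counts (%, log axis) in each of the 94 oocytes; the dashed line marks 5%. Bcl2l10 and Bcl2l1 run downwards with the share among the 21 aged oocytes above the line, while Bnip3l has most of its highest values there and Bax its lowest.

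Among oocytes of at most 5%, those with more Bcl2l10 tended to have less Bcl2l1. Spearman's rho between their CPM was -0.77 over the 35 young oocytes and -0.51 over the 38 aged ones. In the young oocytes the genes shared a technical measure as well. There Bcl2l10 had a rho of -0.64 with the total count and of 0.65 with the mitochondrial share, and Bcl2l1 had a rho of 0.56 with the total and of -0.52 with the share. In the 38, Bcl2l10 had a rho of -0.16 with the total and of 0.08 with the share. Bcl2l1 had 0.02 with the total and -0.59 with the share there. In the 21, the rho between Bcl2l10 and Bcl2l1 had the opposite sign, at 0.61. The part of depth and of the mitochondrial share in these relations was not tested.

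**Figure D3:**
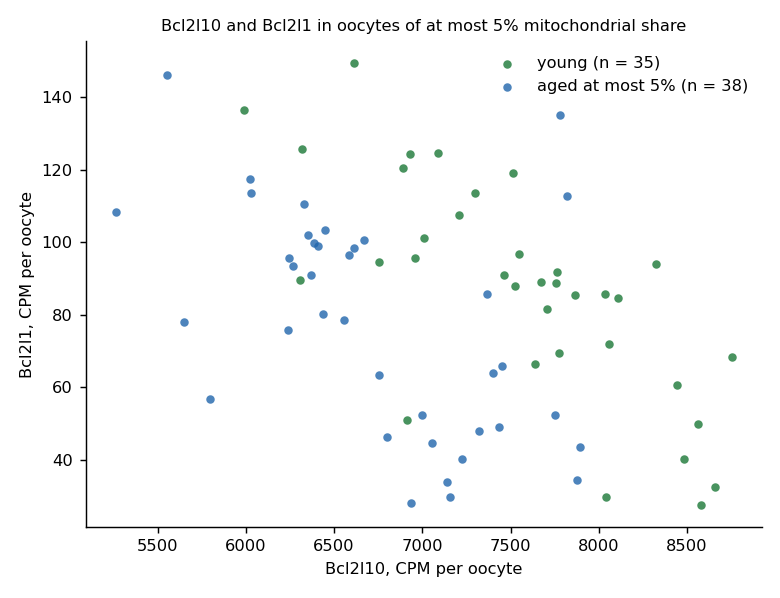
Bcl2l1 (CPM) against Bcl2l10 (CPM) in the 73 single oocytes of at most 5% mitochondrial share, 1 point per oocyte. Points run from the upper left to the lower right in both ages, with a Spearman's rho of -0.77 over 35 young and -0.51 over 38 aged oocytes.

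Over the 35 young oocytes and 6581 genes with a median of at least 10 CPM, the genes whose level followed Bcl2l10 most closely were Cks1b, Zcchc10 and Unc50, with rho of 0.896, 0.891 and 0.887. Those closest to Bcl2l1 were Lrrc8e, Dtx2 and Actr1a, with rho of 0.932, 0.931 and 0.923. Bnip3l had looser company, with Zfp322a at 0.714 and Serinc1 and Sypl at 0.693. The median rho of all 6581 genes was -0.06 with Bcl2l10, 0.04 with Bcl2l1 and 0.02 with Bnip3l. At rank 10 the rho was still 0.858 with Bcl2l10, 0.9 with Bcl2l1 and 0.646 with Bnip3l, so the genes named are the top of a wider group. The part of depth and of the mitochondrial share in these values was not tested.

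Mcl1, a short-lived survival protein gene at chr3:95658788-95663176, was the only one of the 6 members at 1 CPM or more that was at least 2-fold higher in the 21 than in the 38. Its levels in young oocytes were 0.136, 1.75 and 4.57 CPM (lowest, median, highest), and in the 38 they were 0.275, 2.40 and 10.4 CPM. In the 21 it had no count in 3 oocytes, a median of 5.89 CPM and a highest level of 27.3 CPM. Of these 21, 11 lay above every young oocyte, against 4 of the 38. The summed level was 8.10 CPM in the 21 against 2.69 CPM in the 38, a ratio of 3.01 with an exact interval of 2.72 to 3.34. Aged over young it was 2.08, and 1.35 for the 38 over the young, but 0.744 and 0.753 per count of the ERCC spike-ins described below.

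Bcl2, the founding survival gene of the family at chr1:106538178-106714274, was near the detection limit in every class. It had a count in 19 of 35 young, 22 of 38 and 5 of 21 oocytes, at 0.399, 0.342 and 0.436 CPM summed. After thinning every oocyte to 2000000 counts it was seen in 12, 15 and 4 oocytes. A single oocyte held 47.6% of its counts in the 21, and the ratio of the 21 to the 38 was 1.28 with it and 0.709 without it.

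The pore-forming gene Bax, at chr7:45461697-45466898, was the best detected of the 3 effectors and was low in the 21. In young oocytes it was at 0.880, 1.98 and 4.97 CPM (lowest, median, highest), and in the 38 at 0.787, 2.81 and 6.45 CPM. The 2 ranges overlapped widely. In the 21 its median was 0.196 CPM and its highest level 1.12 CPM, and 20 of them lay below every young oocyte, against 2 of the 38. It had a count in 35 of 35 young oocytes, in 38 of 38 and in 12 of 21, and in 35, 37 and 8 of them after thinning to 2000000 gene counts. Thinning matched the total, not the nuclear depth, since the median mitochondrial share was 32.8% in the 21 and 1.75% in the 38. The summed level was 9.72-fold lower in the 21 than in the 38, at 0.291 against 2.83 CPM, on 28 and 736 counts. For all aged over young the ratio was 0.957, and for the 38 over young it was 1.26.

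Bak1 at chr17:27019810-27029009 and Bok at chr1:93685660-93695764, the other effector genes, were close to absent from these libraries. Bak1 had a count in 2 of 35 young and 4 of 38 aged oocytes of at most 5%, from 5 and 7 counts in all. Bok had a count in 9 of 35 and 4 of 38, from 39 and 15 counts. Neither had a count in the 21, where 0 of 21 oocytes allows a share of oocytes with a count of up to 14.3% by the 3-count rule and 16.1% by the exact binomial bound. At this depth that says nothing of oocytes with the transcript. The 3-count limit over the 21 was 0.0312 CPM, above the 0.0269 CPM of Bak1 in the 38 and below the 0.0576 CPM of Bok there.

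The BH3-only genes were low in all classes. Bid, whose protein is cut by caspases and then acts on the pore formers, lies at chr6:120891930-120916853. It ranged up to 6.33 CPM in young oocytes and up to 5.26 CPM in the 38, with medians of 1.10 and 1.62 CPM. It had a count in 34 of 35, 34 of 38 and 8 of 21 oocytes, and in 28, 31 and 3 after thinning. Its summed level was 8.07-fold lower in the 21 than in the 38, at 0.239 against 1.93 CPM. One oocyte held 65.2% of the Bid counts of the 21, and without it the ratio was 0.0444 in place of 0.124. Bad at chr19:6941861-6951899, whose protein binds survival members when it is not phosphorylated, had a count in 22, 24 and 5 oocytes and summed levels of 0.231, 0.395 and 0.125 CPM.

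Bnip3l encodes NIX, a receptor in the outer mitochondrial membrane that marks mitochondria for removal by autophagy, and lies at chr14:66985239-67008877. In young oocytes its level was 54.2 to 139 CPM with a median of 84.7, and in the 38 it was 59.1 to 159 CPM with a median of 80.2. Of the 38, 1 lay above every young oocyte. In the 21 it was 9.01 to 291 CPM with a median of 147, with 11 above every young oocyte and 3 below every one of them. The summed level was 139 CPM in the 21 against 88.0 CPM in the 38, a ratio of 1.58, and 102 against 89.1 CPM for all aged over young. Its 3 lowest levels, 9.01, 9.73 and 36.6 CPM, were in oocytes with shares of 61.6%, 52.7% and 44.4%, while over all 21 its rho with the share was weak, at -0.296 and, over nuclear totals, -0.108.

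Across all genes, lower levels in the 21 were common, and the count of lower members was near that background. Of 11708 genes with a mean of at least 1 CPM, 45.3% were at least 2-fold lower in the 21 than in the 38 and 7.22% at least 2-fold higher, on the log2(CPM + 1) scale and with no test. Of the 6 members at that level, 3 were lower (Bcl2l10, Bax and Bid) and 1 was higher (Mcl1). The median log2 ratio was -0.82 over all genes and -0.29 over the 6. Over nuclear totals the median of all genes moved to -0.44, 35.9% of genes were lower and 14.4% higher, and Bcl2l1 and Bnip3l joined Mcl1 among the higher members, with ratios of 2.65, 2.22 and 4.22. Bcl2l10, Bax and Bid stayed lower there, at 0.386, 0.144 and 0.174. Set against the young oocytes, 42.4% of genes were at least 2-fold lower in the 21 and 9.5% higher, and of 5 members at that level Bcl2l10 and Bax were lower and Mcl1 was higher. Over nuclear totals these shares were 33.2% and 17.7%, with Bcl2l1 and Bnip3l again joining Mcl1. Between all aged and young oocytes, 2.23% of genes were higher by this measure and 0.667% lower, and 0 of 6 members passed in either direction. For the 38 over the young, the background was 1.44% higher and 0.244% lower, again with 0 of 6 members.

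The direction of 4 members depended on the denominator. ERCC spike-ins are synthetic RNAs added to each lysate. Counts per spike-in count follow the amount of RNA per library only where each lysate received the same spike-in amount, which was not tested. The median ERCC count was 110006 in young and 256155 in aged oocytes. Per ERCC count, the ratio of the 21 to the 38 was 0.614 for Bcl2l1, 0.513 for Bnip3l, 0.977 for Mcl1 and 0.414 for Bcl2, all below 1, and 0.0894 for Bcl2l10, 0.0334 for Bax and 0.0402 for Bid. Libraries of the 21 held 1.30 to 60.5 gene counts per ERCC count, those of the 38 held 14.8 to 49.5 and those of the young 18.3 to 147. Per ERCC count all 10 members were lower in the aged sample than in the young, from 0.117 for Bok to 0.744 for Mcl1, with Bcl2l10 at 0.259, Bcl2l1 at 0.388 and Bnip3l at 0.409. Bcl2l1, Mcl1, Bak1, Bad, Bid and Bnip3l were above 1 per gene count and so turned. For the 38 over the young, all 10 were again below 1 per ERCC count, and Mcl1, Bax (1.26 to 0.707), Bak1, Bad and Bid turned. Within a comparison, ERCC scaling multiplies the ratio of every gene by the same factor. For aged over young it took Bcl2l10 from 0.722 per gene count to 0.259. The fall of all 10 is therefore not particular to the members, and the share of all genes below 1 per ERCC count was not counted.

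**Figure D4:**
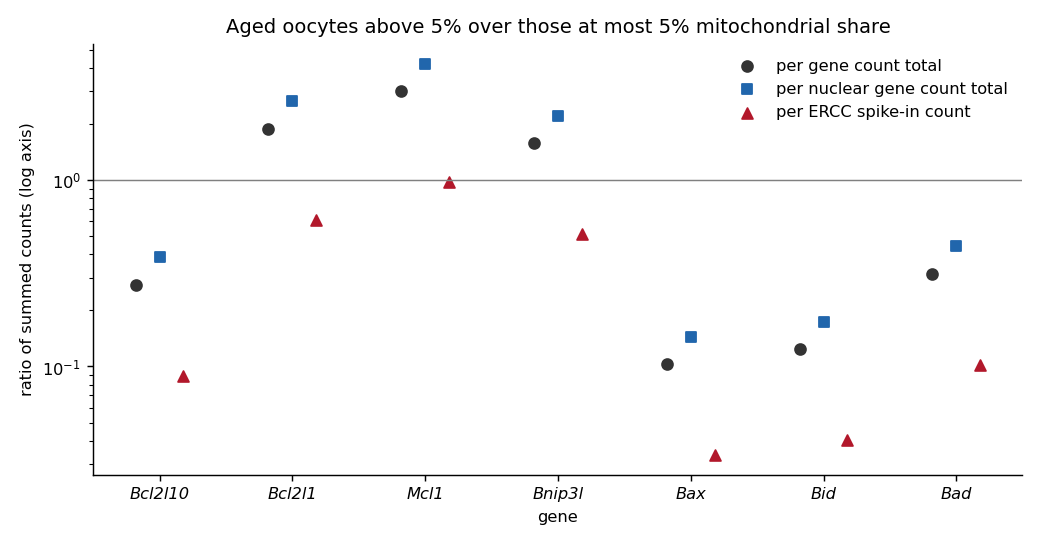
Ratio of summed counts in the 21 aged oocytes above 5% mitochondrial share to those in the 38 of at most 5%, on a log axis, for 7 genes under 3 denominators: all gene counts, nuclear gene counts and ERCC spike-in counts. Bcl2l10, Bax, Bid and Bad lie below 1 under all 3, while Bcl2l1, Mcl1 and Bnip3l lie above 1 per gene count and below 1 per ERCC count.

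Marker genes of other ovarian cells had lower summed medians in the 21 than in the other classes. The summed level of 12 cumulus and granulosa markers had a median of 68.6 CPM in young oocytes, 67.2 in the 38 and 5.69 in the 21, and was nearly all Cyp19a1 in young oocytes and in the 38. In the 21, Fshr, Amh, Foxl2, Ptx3 and Pgr had no count, while Amhr2 (0.467 against 0 CPM in the 38), Tnfaip6 (0.353 against 0.0154) and Has2 (0.852 against 0.607) had higher summed levels and reached 7.90, 9.28 and 13.3 CPM in single oocytes. The 9 stroma, theca and endothelium markers had medians of 173, 111 and 16.2 CPM, mostly from Pecam1 in young oocytes and in the 38, with Cyp17a1 at 0 in every class. In the 21, Tek was the highest of them at 9.13 CPM summed, with Pecam1 at 5.05 CPM. The 7 blood and immune markers had medians of 12.2, 9.77 and 1.05 CPM, mostly from C1qb in young oocytes and in the 38. They reached 129.9 CPM in the 21, where the haemoglobin genes Hba-a1 and Hbb-bs were at 7.95 and 3.45 CPM and Lyz2 at 0.301 CPM. Cd68 and C1qb were lower there than in the 38, and Ptprc and C1qa had no count. Cyp19a1, Pecam1 and C1qb were at no less than 44.6, 88.9 and 3.10 CPM in any young oocyte. Whether their counts came from other cells was not tested.

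In the pools, silencing of Plat was compared with control siRNA to ask whether the family moved with it, and 1 member passed the test. Of 8 members in the table, 6 passed the filter on low counts. Only Bnip3l was called by the edgeR quasi-likelihood test at a Benjamini-Hochberg adjusted p under 0.05, 1 of 6, where 3.54% of all 11136 tested genes were called and 2.13% were called as higher. At an unadjusted p under 0.05 the members were 2, Bnip3l and Bax, against 18.8% of all genes. The siCtrl and siPlat pools did not overlap for 2 of the 6, against 49.4% of all genes.

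**Figure D5:**
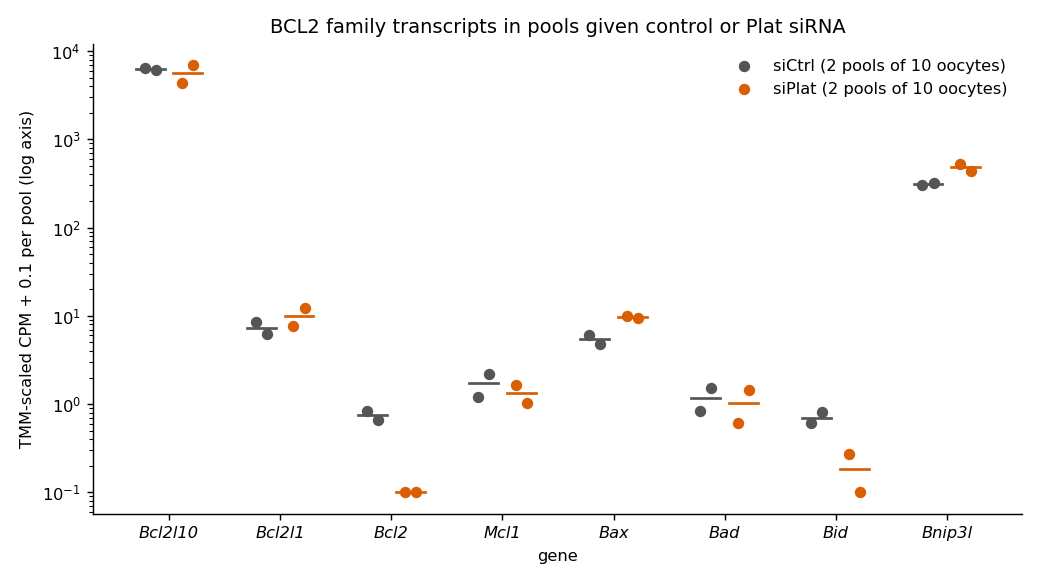
Level of 8 members in each pool of 10 oocytes, as CPM after TMM scaling plus 0.1 on a log axis; points are pools and lines are means of 2 pools. Bnip3l and Bax are higher in both siPlat pools than in both siCtrl pools, Bcl2l10 and Bcl2l1 overlap between groups, and Bcl2 has no count in either siPlat pool.

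Bnip3l was at 300.8 and 316 CPM in the siCtrl pools and at 531 and 438 CPM in the siPlat pools. Both siPlat pools lay above both siCtrl pools. The means were 308 ± 10.5 and 485 ± 65.3 CPM (SD, n = 2 each), a 1.57-fold rise. The log2 fold change was 0.65 with a standard error (SE) of 0.16 and an edgeR adjusted p of 0.0490. With the replicate number as a block in the edgeR fit, the adjusted p was 0.0816. The call stood close to the threshold and was lost on leaving out any of 3 of the 4 pools. Without siPlat replicate 1 the adjusted p was 0.0525, without siCtrl replicate 1 it was 0.335 and without siCtrl replicate 2 it was 0.275, with log2 fold changes between 0.50 and 0.80 over the 11 alternatives and edgeR, DESeq2 or limma adjusted p from 0.00148 to 0.335.

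Bax was at 5.99 and 4.66 CPM in the siCtrl pools and at 9.82 and 9.42 CPM in the siPlat pools. The groups did not overlap. The means were 5.33 ± 0.940 and 9.62 ± 0.283 CPM (SD, n = 2 each), with a log2 difference of 0.85 and an SE of 0.33, and the edgeR adjusted p of 0.191 did not pass, nor did it in any alternative, where it ran from 0.152 to 0.631. Of the exons of Bax, 12.2% are shared with another gene on the same strand, Gm45808.

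Bcl2l10 was at 6458 and 6080 CPM in the siCtrl pools and at 4303 and 6881 CPM in the siPlat pools. The siPlat pools lay on either side of the control pools. The log2 difference was -0.16 with an SE of 0.20 and an edgeR adjusted p of 0.721. The sign turned on siPlat replicate 1: without it the log2 difference was 0.13 (adjusted p 0.660), and without siPlat replicate 2 it was -0.53 (adjusted p 0.0166). Bcl2l10 held 98.4% and 98.3% of the summed TPM of the 8 members in the siCtrl pools and 96.0% and 97.9% in the siPlat pools.

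The other tested members did not pass. Bcl2l1 was at 8.34 and 6.15 CPM in the siCtrl pools and at 7.58 and 12.1 CPM in the siPlat pools, with a log2 difference of 0.44, an SE of 0.35 and an edgeR adjusted p of 0.554. Mcl1, on 12 to 30 counts per pool, had a log2 difference of -0.37 with an SE of 0.78, and Bad, on 6 to 20 counts, had -0.19 with an SE of 0.95. At such counts a 2-fold difference lies within 2 SE.

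Bcl2 and Bid lay below the filter and were not tested. Bcl2 had 13 and 8 counts in the siCtrl pools and 0 and 0 in the siPlat pools. With 3 counts set over the siPlat group in place of 0, its summed level would be 5.32-fold lower. The lower end of its counting interval was 3.96-fold, and this interval leaves out the spread between pools. Bid had 9 and 10 counts against 2 and 0, a summed ratio of 7.22-fold lower with a counting interval of 1.74 to 63.9. Fitted without the filter, the edgeR adjusted p was 0.287 for Bcl2 and 0.596 for Bid. In both the pools and single oocytes, reads of overlapping genes cannot be told apart, because the strand setting of the counting was not stated. Of the exonic bases of Bid, 17.7% overlap Bcl2l13, and 20.5% of those of Bad overlap Gpr137, both on the opposite strand. An antisense gene overlaps 6.1% of those of Bcl2. Those of Bak1, described only in single oocytes, overlap entries of Ggnbp1 on the opposite strand by 18.2% and 7.4%.

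The order of levels per length differed between the 2 tables below Bcl2l10. In the siCtrl pools Bcl2l10 was at 15204 TPM, Bnip3l at 236 TPM, Bax at 9.99 TPM and Bcl2l1 at 4.67 TPM, with Mcl1 at 1.41 TPM. In young single oocytes Bcl2l1 stood above Bax, at 63.1 against 4.59 TPM. The table of pools holds no mitochondrially encoded gene, so the mitochondrial share cannot be given for the pools. The TPM denominators of the 2 tables thus cover different genes. The tables are separate and the pools received siRNA, so these levels stand side by side with no test.

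Around the members, pathway lists are counted in the pools. Beside them stand the 3.54% of all genes called by edgeR and the 18.8% at an unadjusted p under 0.05. In lists of this size counts of 0 or 1 lie near that background. Of the 11136 tested genes, DESeq2 called 678 and limma-voom 414. None of the 7 tested of 16 other BCL2 family genes was called by edgeR (0 at an unadjusted p under 0.05, 0 with DESeq2, 0 with limma-voom), with a median log2 difference of 0.33 against -0.03 over all genes. The 2 with the widest difference were Bcl2l15 at 1.25 and Bcl2l12 at 0.70. Of 13 tested genes of cytochrome c release and the apoptosome, edgeR called 0, with 2 at an unadjusted p under 0.05, 1 called by DESeq2 (Vdac2, adjusted p 0.0175) and 0 by limma-voom. The 2 widest there were Diablo, whose protein frees caspases from their inhibitors, at -0.95 with an edgeR adjusted p of 0.0713, and the initiator caspase gene Casp9 at 0.90. Of 31 tested regulators of BCL2 proteins, 0 were called by edgeR, DESeq2 or limma-voom and 4 were at an unadjusted p under 0.05, with Pim2 at -1.47 and Tmbim4 at -0.75.

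Of 15 tested mitophagy genes, 5 were at an unadjusted edgeR p under 0.05, beside 18.8% of all genes, and the median log2 difference was -0.07. At an edgeR adjusted p under 0.05, 1 mitophagy gene fell and none rose. It was Nipsnap1, whose protein flags damaged mitochondria for autophagy, at 48.4 ± 6.06 CPM in the siCtrl pools and 24.5 ± 6.41 CPM in the siPlat pools (SD, n = 2 each), a log2 fold change of -0.98 with an SE of 0.23 and an edgeR adjusted p of 0.0445. The call ended without siCtrl replicate 1 (adjusted p 0.101), siCtrl replicate 2 (0.265) or siPlat replicate 1 (0.0562), and with upper-quartile scaling (0.0544). DESeq2, which called 678 of all 11136 genes, also called Optn as lower (adjusted p 0.0302) and Phb as higher (0.0454). Among oocyte markers, 4 of 11 tested fell by the edgeR test (Zp1, Gdf9, Mos and H1foo) and none rose, and the median log2 difference of the 11 was -0.65. At an unadjusted edgeR p under 0.05 there were 8 of these 11, beside 18.8% of all genes in either direction. The marker lists were chosen with earlier results of these data known, so this count is a description only. Of 12 cumulus and granulosa markers, 3 were in the table of pools, and the 1 tested, Cyp19a1, had a log2 difference of 0.09.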

How the data were processed

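The authors deposited whole-number read counts per gene in 2 tables, 1 for the 4 pools and 1 for the 94 oocytes, with 92 ERCC entries in the latter. STAR 2.7.10b, HTSeq 0.13.5 and mm10 are named per the submitters' processing notes, with no role given; annotation, strand setting and filters are not given in the sources used here. The 10 members and all gene lists were chosen with earlier results of these data known. Pools were tested with edgeR 4.0.16 (quasi-likelihood, robust, TMM, default expression filter with a minimum count of 10 and total of 15) in R 4.3.3, over 11136 genes, with Benjamini-Hochberg adjustment; DESeq2 1.42.0, limma 3.58.1 (voom), other scalings and filters, a replicate block and leaving out each library were the alternatives. On simulated counts the test missed most 2-fold changes, first with a common and then with a gene-wise spread.

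For single oocytes, counts were summed per class and given as CPM of gene counts without ERCC, with exact Poisson intervals (95%) for sums; ratios on a log2 scale used a pseudocount of 1 CPM. The labels name no molecular identifiers, so intervals cover counting error only. TPM used exon-union lengths of GENCODE M21 (GRCm38), which covered 99.9% of gene counts. Shares of oocytes were also given after thinning to 2000000 counts. Besides the members, the text names list genes called by edgeR, otherwise the 2 with the widest log2 difference; in single oocytes, the 2 highest and 2 lowest log2 ratios at 5 CPM or more; and the 3 genes most like each of the 3 highest members. Vdac2, Optn and Phb in the pools, and the marker genes given, were named after their values were seen. No 2 of the 94 oocyte columns were identical, and pools of a group differed beyond sampling noise.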

Additional observations from a re-analysis of the deposited data

How the results depend on the processing

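In the pools, 394 genes and 1 member were called by edgeR. DESeq2 called 678 genes, and leaving out 1 library gave 157 to 1145 genes and 0 to 2 members. Between pools of the same replicate number, deviations from the group mean had a correlation of -0.0983 over genes. With 2 pools per group this cannot show whether pools of the same number were prepared together. With the replicate number as a block, edgeR called 273 genes and 0 members, with Bnip3l at an adjusted p of 0.0816. Limma-voom called 414 genes, the other scalings 379 and 401, no filter 581 and a minimum of 50 counts 580. Of 64 values of members under alternatives, 4 turned sign, none of them a call: leaving out 1 library gave log2 differences of -0.53 to 0.13 for Bcl2l10, -0.77 to 0.15 for Mcl1 and -1.02 to 0.35 for Bad, which was positive without siCtrl replicate 2 or siPlat replicate 1 (0.32). The cause was not tested. For age, the log2 ratio of Bcl2l10 was -0.16 without the oocytes above 5% mitochondrial share, -0.15 without the 30 above 2%, -0.62 as a mean and -0.27 as a median over oocytes, -0.35 over nuclear totals and -1.95 per ERCC count, below 0 in each. That of Bcl2l1 moved from 0.11 to -0.19 without the oocytes above 5%, and that of Bnip3l from 0.19 to -0.02. Leaving out single oocytes, and the nuclear and ERCC scalings of the 21 against the 38, were chosen after seeing the data. Depth limited Bak1, Bok, Bcl2 and Bad in single oocytes and Bcl2 and Bid in pools.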

Other observations

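In the single oocytes, genes of the same pathways with at least 5 CPM differed between ages in both directions, given here as log2 ratios of summed levels (aged over young, CPM + 1) with no test, since each age was 1 sample. All 5 other BCL2 family genes at that level were lower in the aged sample: Bik at -0.39, Bnip3 at -0.37, Bcl2l11 (the BH3-only gene of BIM) at -0.34, Bcl2l13 at -0.13 and Bnip2 at -0.12, beside a median of -0.07 over all genes. Without the aged oocytes above 5% mitochondrial share, Bnip3 was at 0.01, Bnip2 at -0.00199, Bik at -0.32, Bcl2l13 at -0.20 and Bcl2l11 at -0.47. Bnip3 is the nearest relative of Bnip3l, and its summed level in the 21 oocytes above 5% was 4.87 CPM against 40.5 CPM in the other 38 aged oocytes, where Bnip3l was at 139 against 88.0 CPM.

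Of 10 genes of release and the apoptosome, 5 were higher and 5 lower in the aged sample. Xiap, whose protein blocks caspases, was highest at 1.11 (42.8 CPM, against 19.3 CPM in the young) and the channel gene Vdac3 followed at 0.90, while Htra2 was at -0.67 and Aifm1 at -0.42. Of 28 regulators of BCL2 proteins, 13 were higher and 15 lower, with the stress kinase gene Mapk8 at 1.18 and Huwe1, a ubiquitin ligase that targets the MCL1 protein, at 0.97, and with Pim1 at -0.92 and Trp53 at -0.77. Of 13 mitophagy genes, 5 were higher and 8 lower, with Map1lc3a at 0.57, Optn at 0.40, Nipsnap2 at -0.68 and Phb2 at -0.53. Without the oocytes above 5%, some of these ratios were nearer 0 and some farther from it. Xiap was at 0.54, Mapk8 at 0.61, Huwe1 at 0.72, Htra2 at -0.34, Aifm1 at -0.06, Pim1 at -0.60, Trp53 at -0.41, Phb2 at -0.20 and Nipsnap2 at -0.67, while Vdac3 was at 0.998, Optn at 0.73 and Map1lc3a at 0.82.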
